A study of Mus musculus with 123 samples.

Results

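Chaperones of the endoplasmic reticulum (ER), the compartment in which secreted and membrane proteins fold, were followed in single mouse preimplantation embryos. The 10 genes Hspa5, Hsp90b1, Calr, Canx, Pdia3, Pdia4, Pdia6, Hyou1, Dnajb9 and Xbp1 were taken by name from a table of unique molecular identifier (UMI) counts that lists 29022 genes. They were read in every embryo of the study, and the embryos fall into 16 groups by line, genotype and stage. All 10 genes were detected well enough to be tested in every comparison.

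The embryos carried mutations of Pou5f1, which encodes the transcription factor Oct4, or of Sox2, which encodes its partner. In Oct4 KO and Sox2 KO embryos neither the egg nor the embryo's own genome supplied the factor. Their mothers were Pou5f1 flox/flox or Sox2 flox/flox and carried Zp3-Cre, a Cre recombinase active in the growing oocyte, so that every egg brought a deleted allele (Δ). Their fathers were heterozygous for a null allele marked with a fluorescent reporter under the PGK promoter, mKO2 at Pou5f1 or EGFP at Sox2. KO embryos inherited the marked allele and were mKO2/Δ or EGFP/Δ, whereas the Ctrl embryos were their unmarked +/Δ siblings. Ctrl embryos therefore had no maternal supply of the factor and 1 intact paternal allele. MWT embryos came from flox mothers without Cre, were a mix of genotypes that all kept a functional maternal allele, and served as a second reference. The strain label was B6C3F1 in all groups, and all mothers were superovulated. Morulae were whole embryos at E2.75. Inner cell masses (ICMs) at E3.75 (early) and E4.5 (late) came from embryos cultured from E2.5 with the MEK inhibitor PD0325901 at 1 μM, which holds back primitive endoderm, and were freed of trophectoderm by immunosurgery. The Oct4 MWT ICMs were grouped by their titles, but their other labels call the early ones morulae, with no inhibitor, and the late ones early ICMs, so their day is uncertain. Epiblast markers summed to 4599 to 8918 CPM in the early ones, above the 2150 to 3588 CPM of the Oct4 MWT morulae. Each group held 8 embryos, except for the MWT groups of the Oct4 line at the morula (7) and early ICM (5) stages and the MWT early ICMs of the Sox2 line (7).

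A protein that enters the ER is bound by the Hsp70 chaperone BiP, is handed to the Hsp90 chaperone GRP94 or, if glycosylated, to the lectins calreticulin and calnexin, and has its disulfide bonds made and reshuffled by protein disulfide isomerases. When unfolded protein builds up, 3 sensors in the ER membrane start the unfolded protein response, in which Ire1 splices the Xbp1 mRNA, ATF6 is cleaved to a transcription factor and PERK slows translation. Most of the genes described here are textbook targets of that response, and cells that secrete much protein also carry them at high levels.

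Hspa5 (ENSMUSG00000026864, chr2:34771970-34777547, plus strand) encodes BiP. Hsp90b1 (ENSMUSG00000020048, chr10:86690209-86705509, minus strand) encodes GRP94. Hyou1 (ENSMUSG00000032115, chr9:44379490-44392369, plus strand) encodes a large Hsp70-like protein that exchanges nucleotide on BiP, and Dnajb9 (ENSMUSG00000014905, chr12:44205559-44210326, minus strand) encodes ERdj4, a J-domain co-chaperone of BiP that also holds Ire1 in check. The lectins are calreticulin, from Calr (ENSMUSG00000003814, chr8:84841850-84846934, minus strand), and calnexin, from Canx (ENSMUSG00000020368, chr11:50293961-50325673, minus strand). The disulfide isomerases are Pdia3 (ENSMUSG00000027248, chr2:121413775-121438687, plus strand), which works with both lectins, Pdia4 (ENSMUSG00000025823, chr6:47796141-47813430, minus strand) and Pdia6 (ENSMUSG00000020571, chr12:17266545-17284770, plus strand). Xbp1 (ENSMUSG00000020484, chr11:5520659-5525893, plus strand) encodes the transcription factor whose mRNA Ire1 splices. Positions are gene spans on mm10. The counts are of 3′ ends and did not measure that splicing, and because they are not per length, levels were compared between embryos and never between genes. Hsp90b1, Pdia3 and Pdia6 overlap other genes of the table, on the opposite strand in each case and for Hsp90b1 also on the same strand, so a share of their counts may be uncertain.

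The ER stress response element, a promoter sequence bound by ATF6 together with NF-Y, is written CCAAT, then 9 bases of any kind, then CCACG. It was searched on both strands of RefSeq promoters, from 250 bases before to 50 bases after the start of transcription (GRCm38.p6). Of the 9 members with a promoter entry, 5 held an exact match: Hspa5, Hsp90b1, which held 2, Calr, Canx and Pdia6. Over all genes, 39 of 32851 promoters (0.119%) held one. The windows below show each match with its fixed bases in capitals, 15 bases of flank on each side, and positions counted from the transcription start. They read 5′ to 3′ on the strand of the gene, so CGTGG and ATTGG mark a match on the opposite strand.
Hspa5, chr2:34772010-34772058, plus strand, −80 to −32: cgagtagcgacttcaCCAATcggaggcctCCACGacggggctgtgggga
Hsp90b1, chr10:86705518-86705671, minus strand, −227 to −74: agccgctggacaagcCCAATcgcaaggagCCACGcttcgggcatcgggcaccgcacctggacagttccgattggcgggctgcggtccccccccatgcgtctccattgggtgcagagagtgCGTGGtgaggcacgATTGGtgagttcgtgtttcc
Calr, chr8:84847060-84847108, minus strand, −177 to −129: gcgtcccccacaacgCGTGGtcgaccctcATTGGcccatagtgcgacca
Canx, chr11:50325785-50325833, minus strand, −160 to −112: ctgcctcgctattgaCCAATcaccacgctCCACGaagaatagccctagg
Pdia6, chr12:17266476-17266524, plus strand, −113 to −65: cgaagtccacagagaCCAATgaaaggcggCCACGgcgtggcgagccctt
With up to 1 mismatch, Pdia3 and Pdia4 also matched, so that 7 of 9 member promoters did, beside 1.5% of all promoters. Dnajb9 and Xbp1 had no such match in these windows. A shorter form of the element, ATTGG, 1 base and CCACG, and the unfolded protein response element, TGACG directly followed by TGG, had no exact match among the 9 promoters, beside 0.0365% and 0.676% of all promoters. A match is a description of letters and shows no binding.

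Depth, genotype and cell identity were checked before the chaperones were read. The embryos held 525755 to 1344035 UMIs each, and levels are given below as CPM, the count scaled to a total of 1000000 UMIs per embryo. Pou5f1 in the Oct4 KO embryos changed by −5.31, −6.07 and −7.12 on the log2 scale against Ctrl in morulae, early and late ICMs, with no overlap between groups, and Sox2 in the Sox2 KO embryos by −2.97, −2.12 and −3.35, with overlap in morulae. Epiblast markers, 14 genes that include Pou5f1 and Sox2, summed to between 3131 and 10079 CPM in the ICMs of the Ctrl and KO groups. Primitive endoderm markers, 17 genes, summed to between 698 and 4117 CPM in the same ICMs, although of these Foxa2 had no UMI in any early ICM. Trophectoderm markers were present in all ICM groups and moved with loss of Oct4 or Sox2, as given beside those results. An adjusted p under 0.05 is called past the test throughout, and a gene that also changed at least 2-fold is named as such. No label says that embryos of a group came from separate litters, so p-values measure the spread between embryos.

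Across the 16 groups the members did not share 1 pattern. Mean Hspa5 ran from 56.0 CPM in Sox2 Ctrl early ICMs to 398 CPM in Sox2 KO morulae, and most neighbouring means of that order lay closer together than 1 SD. The step from 96.3 ± 38.4 CPM in Sox2 KO late ICMs to 174 ± 22.4 CPM in Oct4 MWT early ICMs exceeded either SD (n = 8 and 5). The step from 230 ± 179 CPM in Sox2 Ctrl morulae to 376 ± 100 CPM in Oct4 KO early ICMs exceeded only the SD of the latter. Hsp90b1 ran from 44.1 CPM in Oct4 Ctrl morulae to 231 CPM in Sox2 KO morulae. Calr was highest in Oct4 KO early ICMs (1273 ± 276 CPM, SD, n = 8) and lowest in Oct4 KO morulae (347 ± 50.9 CPM). Xbp1 exceeded 100 CPM on average only in Oct4 KO ICMs, at 170 CPM early and 195 CPM late, whereas the other 14 group means ran from 29.4 to 93.8 CPM. Dnajb9 was highest in the morulae of both lines, with means of 215 to 353 CPM in the 5 morula groups and 56.4 to 190 CPM in the 11 ICM groups. Canx was the steadiest member, with group means between 247 and 431 CPM.

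**Figure D1:**
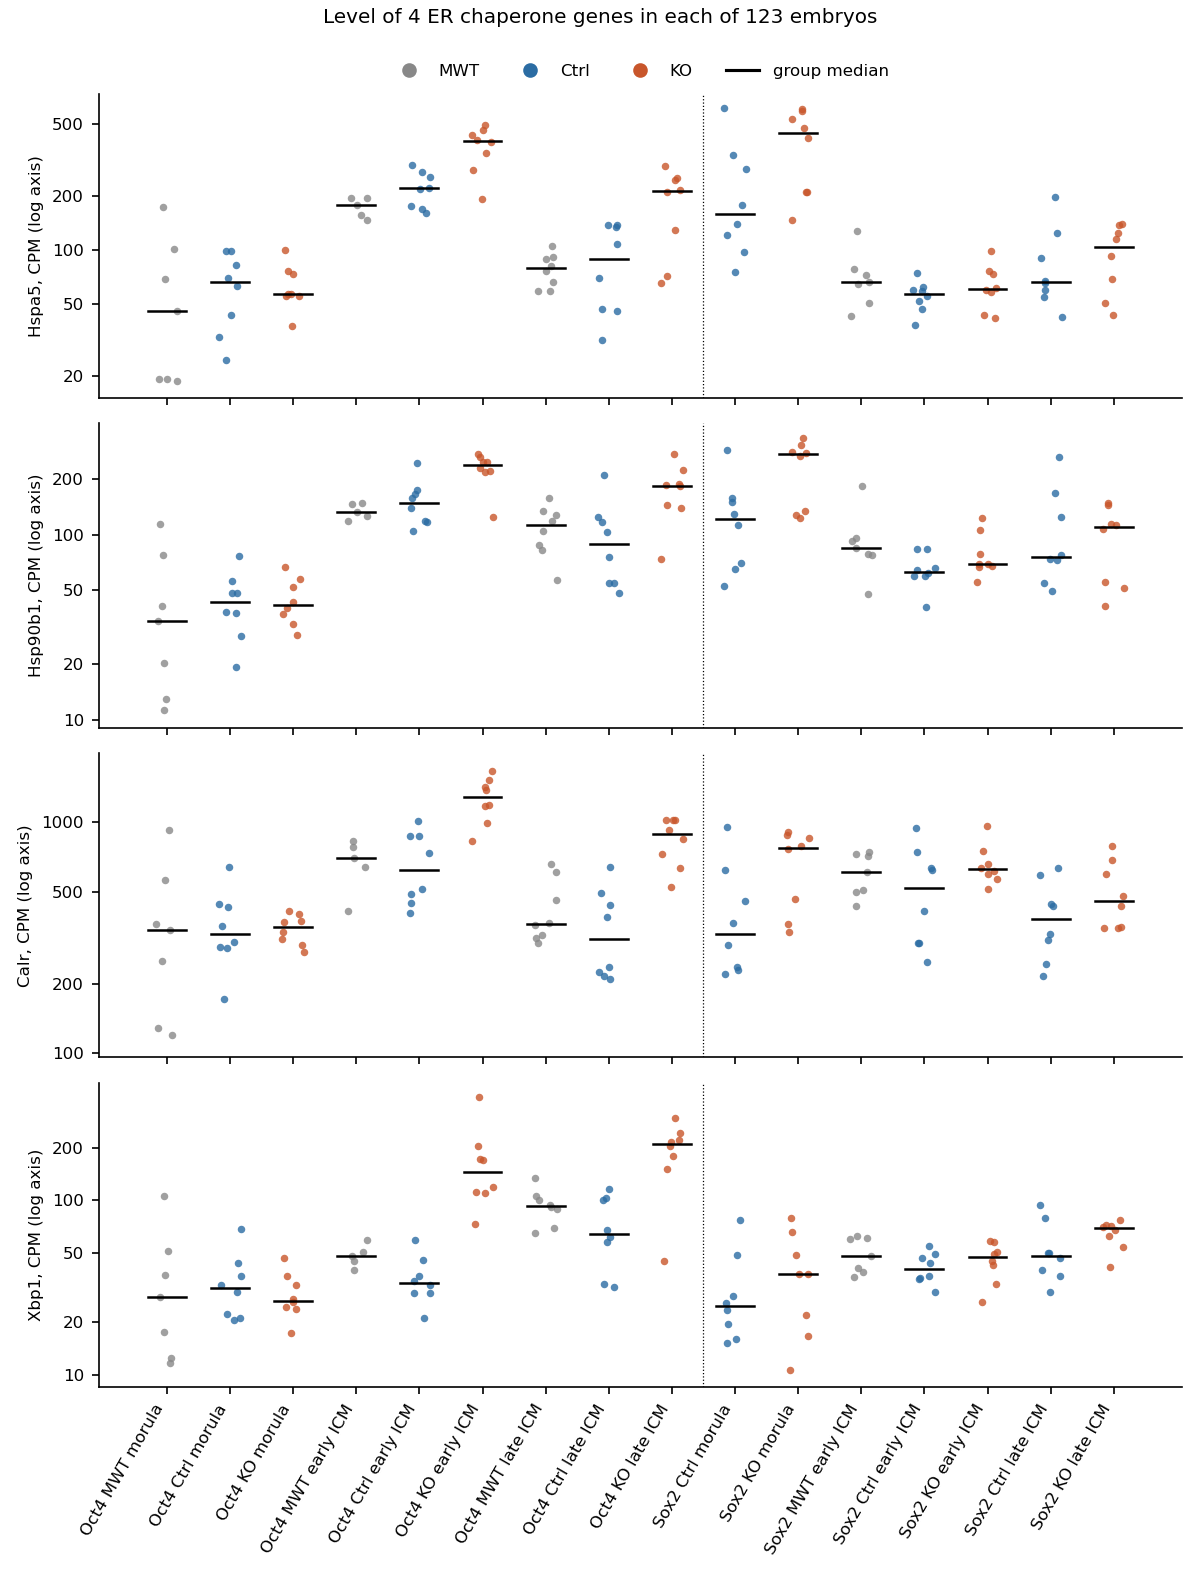
Level of Hspa5, Hsp90b1, Calr and Xbp1 in every embryo (y axis, CPM on a log scale) for the 16 groups (x axis), with a black bar at each group's median. Xbp1 is high in the Oct4 KO ICMs, whereas Hspa5 and Hsp90b1 are also high in Sox2 morulae, where the embryos of 1 group spread widely.

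In early ICMs, loss of Oct4 raised 5 of the 10 chaperone genes and lowered none, beside 10.1% of all 14053 tested genes that were higher and 10.9% that were lower. Xbp1, Calr, Hspa5, Pdia4 and Dnajb9 passed the test, and all 10 fold changes were positive, with a median of 0.75 (log2) beside 0.01 over all genes. Xbp1 and Calr also reached 2-fold, as did 10.9% of all genes in either direction. At an unadjusted p under 0.05 there were 7 members, and the share of all genes at that threshold is not given here. DESeq2 and limma on the authors' rlog values each gave 5.

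BiP and its partners had smaller changes than Xbp1. Hspa5 ran from 193 to 494 CPM in the Oct4 KO early ICMs (median 401) and from 160 to 297 CPM in the Ctrl (median 220). The groups overlapped at their edges, and the fold change was 0.84 ± 0.30 (log2 ± SE, adjusted p = 0.030). Hsp90b1 was at 125 to 273 CPM in KO (median 238) and 106 to 245 CPM in Ctrl (median 149), which is 0.65 ± 0.27 with an adjusted p of 0.069. Of the cofactors of BiP, Dnajb9 rose from a mean of 118 to 190 CPM (0.77 ± 0.24, adjusted p = 0.013), while Hyou1 stood at 22.5 CPM in KO and 12.2 CPM in Ctrl (0.94 ± 0.41, adjusted p = 0.088). The Hspa5 call was narrow, since leaving out any of 6 embryos moved its adjusted p to between 0.050 and 0.069. Dnajb9 no longer passed without KO embryo 14 (0.53, adjusted p = 0.12), which left 2 members past the test.

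Of the lectins, Calr passed the test and Canx did not. Calr ran from 833 to 1664 CPM in KO (median 1286) and from 404 to 1015 CPM in Ctrl (median 624), so that 6 of the 8 KO embryos lay above every Ctrl embryo. Its change of 1.01 ± 0.25 (adjusted p = 0.0018) stayed past the test without any single embryo, although leaving out any of 8 of the 16 took it below 2-fold, down to 0.92. Canx averaged 340 CPM in KO and 327 CPM in Ctrl (0.13 ± 0.12, adjusted p = 0.50). Of the disulfide isomerases, Pdia4 rose from 29.3 to 45.9 CPM (0.72 ± 0.26, adjusted p = 0.037), a call lost when any of 9 embryos was left out. Pdia6 (0.50 ± 0.26, adjusted p = 0.17) and Pdia3 (0.05 ± 0.25, adjusted p = 0.92) did not pass.

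Xbp1 showed the clearest separation. The 8 Oct4 KO early ICMs held 73.4 to 393 CPM (median 145) and the 8 Ctrl held 21.3 to 59.5 CPM (median 33.6). No KO embryo reached down to the highest Ctrl embryo. The change was 2.30 ± 0.29 on the log2 scale, 4.92-fold, with an adjusted p of 1.0e-09, and it stayed between 1.97 and 2.46 when each embryo was left out in turn.

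**Figure D2:**
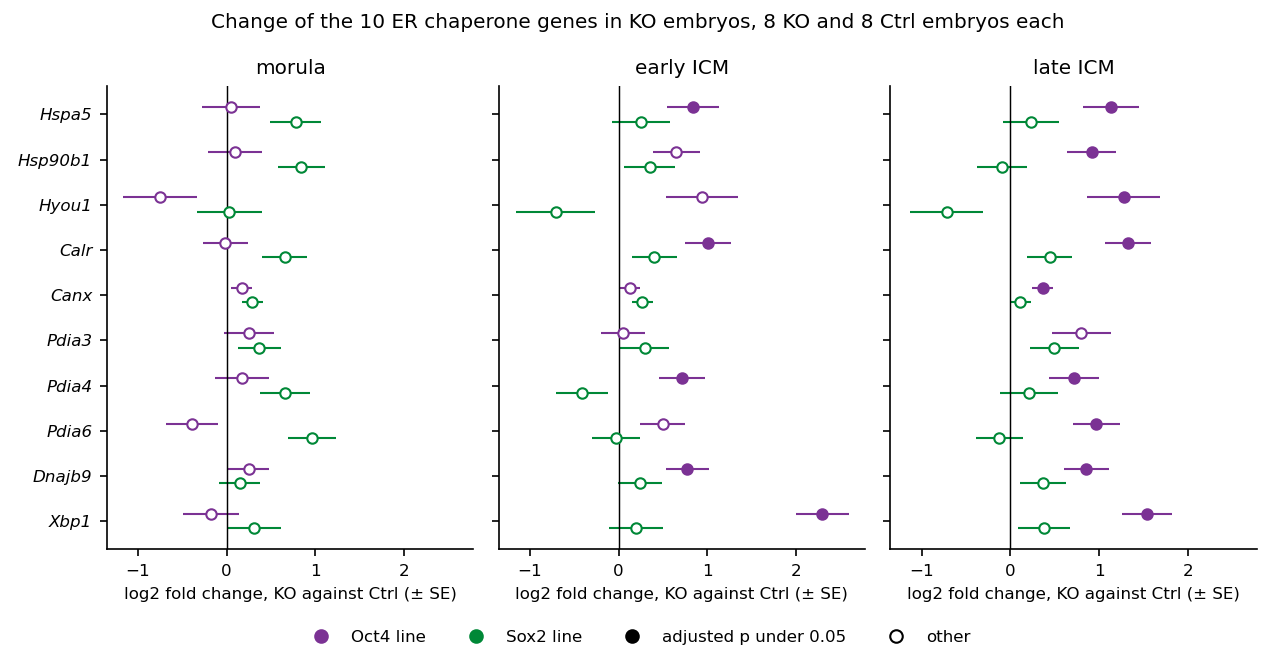
Fold change of each member in KO against Ctrl embryos (log2, with bars of 1 SE) at the 3 stages, for the Oct4 line and the Sox2 line, with filled points for an adjusted p under 0.05. Filled points lie only in the Oct4 ICM panels, 5 early and 9 late, and none lies in morulae or in the Sox2 line.

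In late ICMs, 9 of the 10 members were higher without Oct4 and none was lower, beside 16.0% of all genes higher and 15.7% lower. Only Pdia3 did not pass, and the median change was 0.94 (log2), beside −0.01 over all genes. Xbp1, Calr, Hyou1 and Hspa5 reached 2-fold, as did 18.1% of all genes in either direction. DESeq2 gave 9 members and limma on rlog values gave 10. KO and Ctrl embryos overlapped for every member.

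Hspa5 ran from 65.7 to 293 CPM in the late Oct4 KO ICMs (median 212) and from 31.7 to 138 CPM in the Ctrl (median 88.4). Of the 8 KO embryos, 5 lay above the highest Ctrl embryo, and the change was 1.14 ± 0.32 (adjusted p = 0.0029). Hsp90b1, at means of 177 and 98.8 CPM, changed by 0.92 ± 0.28 (adjusted p = 0.0070). Hyou1 was low in all late ICMs, at 10.9 to 52.7 CPM in KO and 0 to 28.1 CPM in Ctrl. Its 2 Ctrl embryos without a UMI could hold up to 4.13 and 5.01 CPM, the level that 3 counts would give. The Hyou1 change was 1.28 ± 0.41 (adjusted p = 0.012), and it did not pass with counts thinned to the lowest total (1.02, adjusted p = 0.052). Dnajb9 averaged 138 CPM in KO and 81.7 CPM in Ctrl (0.86 ± 0.25, adjusted p = 0.0053).

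Calr ran from 526 to 1028 CPM in KO (median 888) and from 210 to 640 CPM in Ctrl (median 313), with a change of 1.33 ± 0.26 (adjusted p = 2.2e-05). Canx moved least of those that passed, from 315 to 378 CPM (0.37 ± 0.12, adjusted p = 0.013), and did not pass without KO embryo 2-5 (adjusted p = 0.058). Pdia6 rose from 116 to 214 CPM (0.97 ± 0.26, adjusted p = 0.0022). Pdia4 rose from 20.1 to 31.6 CPM (0.72 ± 0.28, adjusted p = 0.044), and 11 of the 16 embryos, when left out, ended that call. Pdia3 stood at 12.7 CPM in KO and 7.60 CPM in Ctrl (0.80 ± 0.33, adjusted p = 0.056). Xbp1 ran from 45.2 to 296 CPM in KO (median 211) and from 31.7 to 117 CPM in Ctrl (median 64.5), which gave 1.55 ± 0.28 (adjusted p = 5.6e-06). A single KO embryo, at 45.2 CPM, sat among the Ctrl.

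The late ICM titles carry a leading digit, 1 or 2, that the labels do not explain. With this label set as a block, 8 members passed the test, all but Pdia3 and Pdia4, beside 14.04% of all genes higher. In set 1 alone, 2 members passed, Calr and Xbp1, beside 9.57% of genes. In set 2 alone, 5 passed, Hspa5, Hsp90b1, Calr, Pdia6 and Xbp1, beside 6.46%. All 10 changes were positive in both sets, and set 1 compared 4 KO with 5 Ctrl embryos and set 2 compared 4 with 3. Without Ctrl embryo 1-9, the one with the most members at their group's highest level, 7 members in place of 4 reached 2-fold.

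Markers of other cells moved alongside the chaperones, and their counts stand beside 10.1% of all genes higher and 10.9% lower early and 16.0% and 15.7% late. In early ICMs, 4 of 14 tested trophectoderm markers were higher and 2 lower in Oct4 KO, and in late ICMs 11 were higher and none lower. The summed level of all 15 listed was 1065 to 1671 CPM in early KO against 526 to 1572 CPM in early Ctrl ICMs, and 1747 to 3475 against 323 to 1238 CPM in late ICMs. Cdx2, which defines trophectoderm, averaged 15.6 CPM in early KO and 14.8 CPM in early Ctrl, then 35.8 and 10.1 CPM in late ICMs. Of the 14 epiblast markers, which include the deleted Pou5f1, 11 were lower early and 14 late. Of 15 primitive endoderm markers 5 rose and 5 fell early while 4 rose and 8 fell late. Of the 13 mitochondrially encoded transcripts, 4 were higher early and 5 lower late. The part of these shifts in the chaperone result was not tested, and in whole ICMs more cells of a type and more RNA per cell cannot be told apart.

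In morulae, loss of Oct4 left no member past the test, beside 0.562% of all genes higher and 0.904% lower. None reached an unadjusted p under 0.05, and DESeq2 and limma also gave 0. Hspa5 averaged 64.0 CPM in KO and 64.2 CPM in Ctrl (0.05 ± 0.32), and Xbp1 averaged 29.4 and 34.6 CPM (−0.18 ± 0.31). Hyou1 lay furthest from 0, at 10.3 CPM in KO and 18.1 CPM in Ctrl (−0.75 ± 0.41, adjusted p = 0.48).

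Whether the early and late effects of Oct4 loss differed was tested directly. No member passed, beside 2.92% of all genes with a more positive and 1.54% with a more negative late effect, none reached an unadjusted p under 0.05, and DESeq2 and limma gave 0. The Xbp1 effect was smaller late by 0.75 on the log2 scale (adjusted p = 0.32) and the Pdia3 effect was larger by 0.75 (adjusted p = 0.34).

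Loss of Sox2 moved no member past the test at any stage. In early ICMs the background was 3.22% of genes higher and 3.82% lower, and 1 member, Canx, reached an unadjusted p under 0.05 (0.27 ± 0.12, adjusted p = 0.17). In late ICMs the background was 6.96% higher and 6.81% lower, and no member reached an unadjusted p under 0.05. DESeq2 and limma gave 0 members at each stage. Xbp1 ran from 26.1 to 58.8 CPM in Sox2 KO early ICMs and from 29.9 to 55.0 CPM in their Ctrl, so the groups overlapped throughout. Its change was 0.20 ± 0.30 early and 0.38 ± 0.29 late. Calr was at 663 CPM in KO and 526 CPM in Ctrl early (0.40 ± 0.25, adjusted p = 0.39) and at 505 and 400 CPM late (0.44 ± 0.26, adjusted p = 0.27). Hspa5 changed by 0.26 ± 0.33 early and 0.23 ± 0.32 late. Within the sets of the late ICM titles, Xbp1 changed by 0.90 in set 1 and −0.07 in set 2, Pdia4 by 1.08 and −0.44 and Pdia6 by 0.62 and −0.51. No member passed in either set or with the set as a block, beside 2.48%, 6.92% and 10.9% of all genes past the test in either direction.

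Cell markers moved with loss of Sox2 as well, beside 3.22% of all genes higher and 3.82% lower early and 6.96% and 6.81% late. In early ICMs 5 of 14 trophectoderm markers were higher and 1 lower, with a summed level of 684 to 2240 CPM in KO and 237 to 733 CPM in Ctrl, and 7 of 14 epiblast markers were lower, at 3491 to 4505 against 3679 to 7487 CPM. In late ICMs 5 trophectoderm markers were higher and 2 lower, at 722 to 2063 against 310 to 3065 CPM, and 9 epiblast markers were lower, at 4574 to 5756 CPM in KO without overlap with 6325 to 9509 CPM in Ctrl. The deleted Sox2 is among the epiblast markers counted as lower at both stages. The part of these marker shifts in the chaperone values was not tested.

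In Sox2 KO morulae the mean of every chaperone mRNA was above that of Ctrl, but no difference passed the test. The background there was 0% of genes higher and 0.00712% lower, that is 1 gene. All 10 members had positive changes with a median of 0.51 (log2), beside 0.01 over all genes, and 6 of 10 reached an unadjusted p under 0.05, beside 618 of all 14053 genes. Hspa5 ran from 146 to 608 CPM in KO (median 446) and from 75.4 to 614 CPM in Ctrl (median 159), and Hsp90b1 from 124 to 334 CPM (median 273) against 53.0 to 286 CPM (median 121). The groups overlapped, and all 8 KO embryos lay above the Ctrl median for Hsp90b1, Calr and Pdia6, as did 7 of 8 for Hspa5, Canx and Pdia4. The largest changes were 0.96 ± 0.27 for Pdia6, 0.84 ± 0.27 for Hsp90b1 and 0.78 ± 0.29 for Hspa5, each with an adjusted p of 0.98 or above.

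The 2 lines were then set against each other by testing the difference of the KO effects, Oct4 minus Sox2, each against its own Ctrl. In early ICMs 1 member differed, beside 3.29% of all genes with a more positive effect in the Oct4 line and 4.83% with a more negative one. It was Xbp1, with a difference of 2.10 ± 0.42 (log2, adjusted p = 2.5e-04), whereas Hspa5 (0.59 ± 0.44) and Calr (0.61 ± 0.36) did not pass. DESeq2 added Pdia4 and Hyou1. In late ICMs 2 members differed, beside 4.18% more positive and 4.49% more negative. They were Hyou1 (1.99 ± 0.59, adjusted p = 0.019) and Pdia6 (1.10 ± 0.37, adjusted p = 0.048). Hyou1 did not pass without Sox2 Ctrl embryo 2-6 (1.57, adjusted p = 0.082) or with thinned counts (1.78, adjusted p = 0.052), and Pdia6 was lost with any of 22 embryos left out. Xbp1 differed by 1.17 ± 0.41 in late ICMs with an adjusted p of 0.054. Without Oct4 Ctrl embryo 1-9, 5 members differed late. In the Sox2 line the early and late effects did not differ for any member, beside 0.0356% of genes more positive late and 0.00712% more negative. None reached an unadjusted p under 0.05 there, and DESeq2 and limma gave 0.

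Between morula and early ICM, Ctrl embryos of the Oct4 line raised 7 members and lowered 1, beside 23.8% of all genes higher and 24.3% lower. The chaperones and isomerases led. Hspa5 went from 24.5–99.0 CPM (median 66.4) to 160–297 CPM (median 220), with no overlap (1.67 ± 0.31, adjusted p = 4.9e-06). Hsp90b1 went from 19.2–76.5 CPM (median 43.2) to 106–245 CPM (median 149), also without overlap (1.69 ± 0.29). Pdia6, Pdia3 and Pdia4 rose by 1.39, 1.24 and 1.11, Calr by 0.77 and Canx by 0.30, of which Canx did not pass without early ICM 8 or without morula 16. Dnajb9, the BiP co-chaperone, ran the other way, from 209–428 CPM (median 320) to 80.7–146 CPM (median 121), a fall without overlap (−1.49 ± 0.24, adjusted p = 1.4e-07). Hyou1 (−0.66 ± 0.41) and Xbp1 (−0.05 ± 0.31) did not pass.

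From early to late ICM in the same line, 1 member rose and 3 fell, beside 17.2% of all genes higher and 15.2% lower. Hspa5 fell to 31.7–138 CPM, below every early ICM (−1.24 ± 0.31, adjusted p = 0.0010). Pdia3 fell from 28.2 to 7.60 CPM (−1.80 ± 0.30) and Calr from 668 to 357 CPM (−0.84 ± 0.26). Xbp1 rose from 36.2 to 71.6 CPM (1.03 ± 0.31, adjusted p = 0.0056). The epiblast markers summed to a mean of 2625 CPM in morulae, 6109 CPM in early and 8518 CPM in late ICMs of these Ctrl embryos, the trophectoderm markers to 1058, 797 and 785 CPM, and the mitochondrial transcripts to 39561, 35110 and 48036 CPM. Whole morulae are set in the first step against isolated ICMs cultured with the inhibitor, so stage, tissue and culture cannot be told apart, and the part of the marker shifts was not tested. These Ctrl embryos are also the reference of the KO comparisons above, so the values are not independent of them.

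In Ctrl embryos of the Sox2 line the same step from morula to early ICM lowered 4 members and raised 1, beside 26.6% of all genes higher and 25.2% lower. Hspa5 fell from 75.4–614 CPM (median 159) to 38.2–74.7 CPM (median 57.1), with no overlap (−2.13 ± 0.32, adjusted p = 1.5e-08). Hsp90b1 fell from a mean of 128 to 65.1 CPM (−1.06 ± 0.28), Pdia3 from 25.6 to 13.7 CPM (−0.96 ± 0.26) and Dnajb9 from 215 to 94.1 CPM (−1.27 ± 0.24). Only Canx rose, from 269 to 376 CPM (0.41 ± 0.12). The epiblast markers summed to a mean of 3081 CPM in these morulae and 5005 CPM in the early ICMs, the trophectoderm markers to 1029 and 547 CPM, and the mitochondrial transcripts to 32681 and 40561 CPM, shifts whose part was likewise not tested. From early to late ICM no member passed, beside 3.36% of genes higher and 3.85% lower, and DESeq2 and limma gave 0. An unadjusted p under 0.05 was reached by 5 members, and the share of all genes at that threshold is not given here. The count past the test became 1 or 2 without any of 5 embryos, among them late ICM 2-6.

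**Figure D3:**
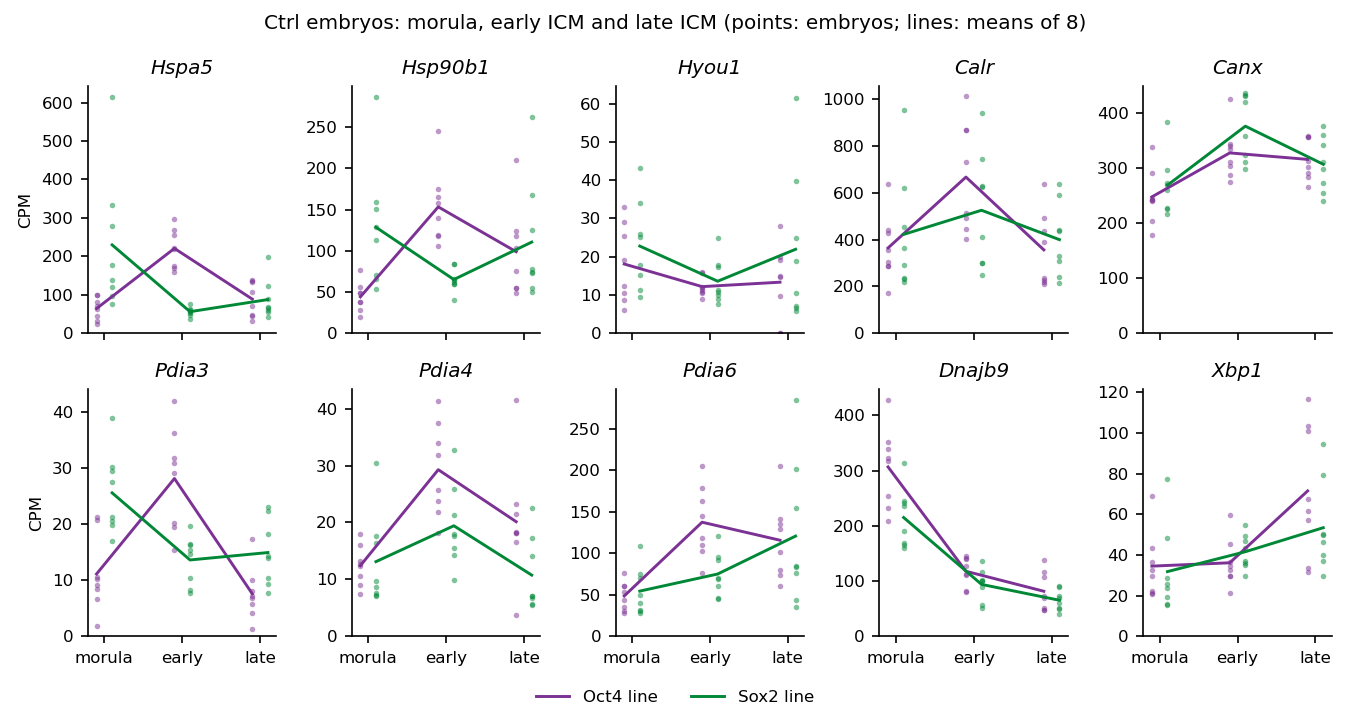
Level of each of the 10 members (y axis, CPM) in Ctrl embryos at the 3 stages (x axis), with points for embryos and lines through the means of 8 embryos for the Oct4 and the Sox2 line. Between morula and early ICM the lines run in opposite directions for Hspa5, Hsp90b1 and Pdia3, and both fall for Dnajb9.

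The opposite courses in the lines were tested after their values had been seen. The morula to early ICM change differed for 4 members, each more positive in the Oct4 line, beside 12.7% of all genes more positive and 13.4% more negative. They were Hspa5 (3.80 ± 0.45, adjusted p = 2.4e-11), Hsp90b1 (2.751 ± 0.403), Pdia3 (2.21 ± 0.38) and Pdia6 (1.01 ± 0.39, adjusted p = 0.042), of which Pdia6 was lost with any of 14 embryos left out, furthest without Sox2 Ctrl morula 20 (0.77, adjusted p = 0.14). Dnajb9 fell in both lines and did not differ past the test (−0.23 ± 0.34). Chaperones outside the ER ran the same opposite ways, and the 16 cytosolic and mitochondrial ones summed to a mean of 13768 CPM in morulae and 18087 CPM in early ICMs of the Oct4 line, and to 20886 and 12220 CPM in the Sox2 line. Of these 16, 11 had a more positive change in the Oct4 line and none a more negative one. Compared directly, Sox2 Ctrl morulae held more Hspa5, Hsp90b1 and Pdia3 than Oct4 Ctrl morulae (by 1.86, 1.56 and 1.2036 on the log2 scale), 3 members higher and none lower beside 10.8% and 10.2% of all genes. Sox2 Ctrl early ICMs held less Hspa5, Hsp90b1, Pdia3 and Pdia6 (log2 changes of −1.94, −1.19, −1.0031 and −0.83), 4 members lower and none higher beside 12.1% lower and 13.8% higher. The lines differ in the allele deleted in the mother and come from different mothers, so line, mothers and any batch cannot be told apart.

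Ctrl embryos, which lack maternal Oct4 or Sox2, were compared with MWT embryos, which do not. In the Oct4 line no member passed at any stage. The background was 0.0503% of genes higher and 0.0287% lower in morulae, 0.388% and 0.251% in early ICMs, and 1.08% and 0.496% in late ICMs. Hyou1 in morulae (0.94 ± 0.42, adjusted p = 0.61) and Pdia3 in late ICMs (−0.73 ± 0.33, adjusted p = 0.29) alone reached an unadjusted p under 0.05, and DESeq2 gave 0 at each stage. Hspa5 averaged 64.2 CPM in Ctrl and 63.8 CPM in MWT morulae, 221 and 174 CPM in early ICMs, and 88.7 and 78.5 CPM in late ICMs. The labels of the ICMs in this comparison conflict, as described above for the Oct4 MWT groups. In the Sox2 line, measured at the early ICM stage, 1 member was lower in Ctrl and none higher, beside 3.30% and 3.02% of all genes. It was Pdia3, at 13.7 CPM in Ctrl and 24.6 CPM in MWT (−0.86 ± 0.28, adjusted p = 0.044). Leaving out any of 10 of the 15 embryos ended this call.

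The leading digit of the late ICM titles went along with chaperone levels in the Sox2 line. With genotype in the model, 3 members were higher in set 2 than in set 1 and none lower, beside 0.932% of all genes higher and 0.835% lower. Hyou1 ran from 5.78 to 10.6 CPM in the 4 Ctrl embryos of set 1 and from 18.98 to 61.5 CPM in the 4 of set 2, and from 3.67 to 7.49 against 14.1 to 23.1 CPM in KO. The sets did not overlap in either genotype, and the difference was 1.99 ± 0.39 (log2, adjusted p = 0.0068). Pdia6 (0.97 ± 0.23, adjusted p = 0.023) and Calr (0.77 ± 0.19, adjusted p = 0.032) followed. Without Ctrl embryo 2-6 or without KO embryo 1-1 the count was 1. In the Oct4 line no member passed, beside 1.74% higher and 2.67% lower, 1 reached an unadjusted p under 0.05, and DESeq2 gave 0. That member was again Hyou1, at 0 to 15.04 CPM in Ctrl set 1 and 19.02 to 28.1 CPM in Ctrl set 2, with 10.9 to 50.7 against 26.5 to 52.7 CPM in KO (1.01 ± 0.37, adjusted p = 0.12).

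**Figure D4:**
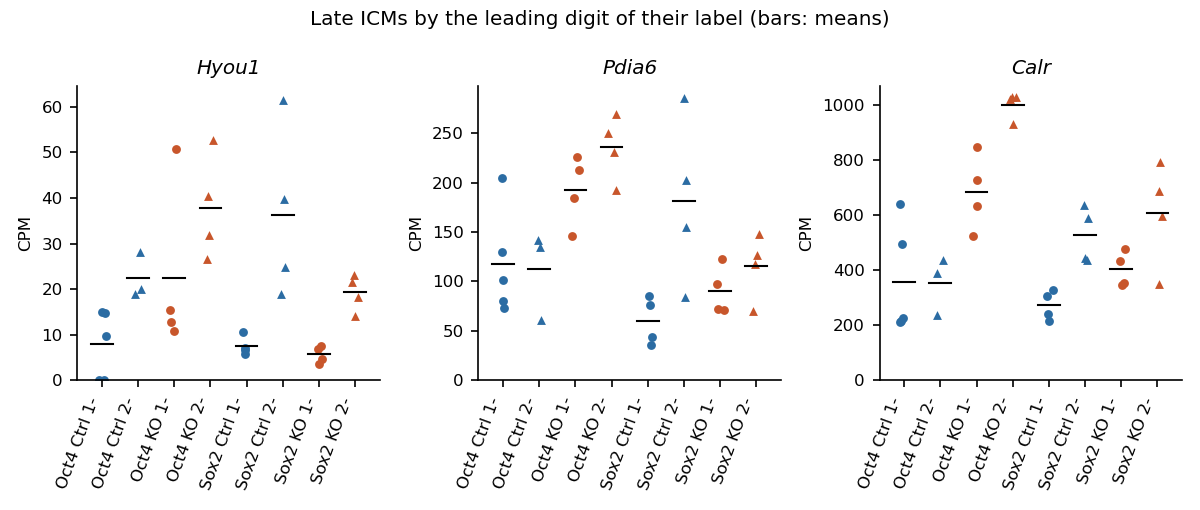
Level of Hyou1, Pdia6 and Calr (y axis, CPM) in late ICMs by line, genotype and leading label digit (x axis), with points for embryos and bars for means. In Sox2 embryos the Hyou1 values of set 2, 14.1 CPM and above, lie over all those of set 1, 10.6 CPM and below.

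Within groups, embryos that were high in one chaperone were high in several others. Over all embryos, after each group's mean log2 CPM had been subtracted, Hspa5 correlated with Hsp90b1 at r = 0.86 (Spearman's rho 0.83), with Pdia6 at 0.81 (0.81) and with Calr at 0.78 (0.75). These were the 3 largest values among the 13923 genes tested, and they were 0.84, 0.78 and 0.74 without the 2 embryos farthest in Hspa5. Among the other members, Pdia4 (0.63), Xbp1 (0.62), Canx (0.54) and Hyou1 (0.40) came next, then Pdia3 (0.25). Dnajb9 stood apart at 0.10. Over all 45 pairs of members the median r was 0.40, and 18 pairs exceeded 0.5. Embryos of a group share line, genotype and stage, and Hspa5 correlated with total UMIs at 0.28 and with summed mitochondrial transcripts at −0.14.

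Group by group, the correlation of Hspa5 with Hsp90b1 ran from −0.37 in the 5 MWT early ICMs of the Oct4 line to 0.99 in Sox2 Ctrl late ICMs, and was above 0.8 in 11 of 16 groups. In MWT morulae of the Oct4 line, embryo 7 held the highest level of 8 members, with 174 CPM of Hspa5 where the other 6 held 18.8 to 101 CPM. Sox2 Ctrl morula 20 also led its group in 8 members, at 614 CPM of Hspa5 against 75.4 to 334 CPM in the other 7. In 4 further groups 1 embryo led in 7 members.

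**Figure D5:**
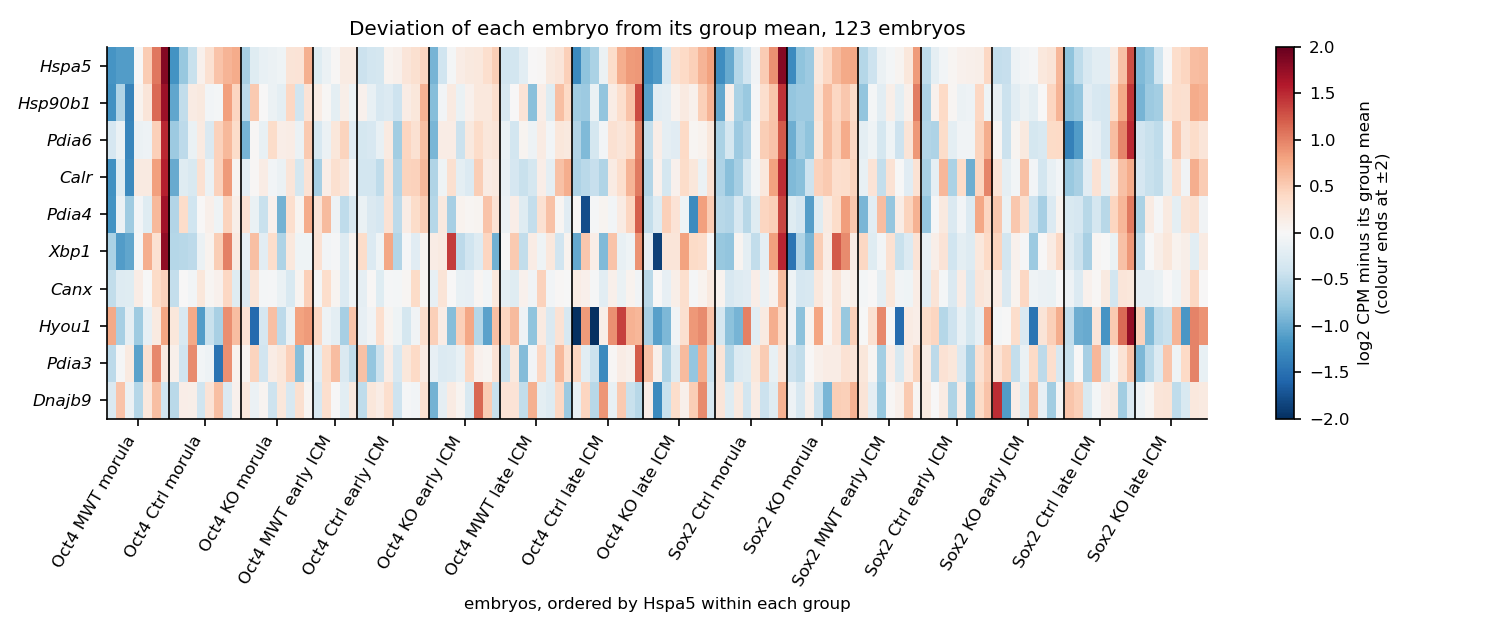
Deviation of each member (rows) from its group mean (log2 CPM, colour scale ending at ±2) in all embryos (columns), with embryos ordered by Hspa5 within each of the 16 groups. Hsp90b1, Pdia6 and Calr grade from low to high along with Hspa5, whereas Dnajb9 does not.

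Among genes outside the 10, those nearest to Hspa5 in this measure and averaging at least 20 CPM were Manf (0.70), which encodes a secreted ER-resident cofactor of BiP, Atp2a2 (0.61), the ER calcium pump, Dnajb11 (0.57), a J-domain co-chaperone, P4hb (0.56), the founding disulfide isomerase, and Creld2 (0.55), an ER isomerase-like protein. Rpn1, Surf4, Dnajc3, Ostc and Stt3a completed the first 10. By the means of the 16 groups instead, which share lines and stages, the nearest were Sec63 (0.92), a J-domain partner of the translocon, Map4 (0.92), Mkln1 (0.91), Aamdc (0.90) and Ubxn4 (0.89), with Hsp90b1 at 0.90.

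Other genes of the ER were read in the Oct4 KO from 8 lists. In late ICMs, with 16.0% of all genes higher and 15.7% lower, 7 of 15 other disulfide isomerase and oxidation genes were higher and 1 lower, led by P4hb, which rose from 216 to 562 CPM without overlap (1.47 ± 0.16, adjusted p = 7.1e-13). Of 16 genes of translocation and signal peptide cleavage, 8 were higher and 1 lower, led by Sec11c, a signal peptidase subunit (1.43 ± 0.22). Of 16 genes of ER-associated degradation, 4 were higher and 1 lower. Edem1, a lectin that passes misfolded glycoproteins on for degradation, rose by 1.41 ± 0.20, and Herpud1, a membrane component of the degradation complex, fell by 2.03 (SE 0.48). Of 13 co-chaperones and BiP cofactors, 4 were higher and 1 lower. Glycoprotein folding genes (1 higher and 1 lower of 6), prolyl isomerases (2 and 1 of 6) and KDEL receptors (1 and 0 of 3) were the smaller lists.

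The sensors and factors of the unfolded protein response were counted apart. In late Oct4 KO ICMs 2 of 14 were higher and 4 lower, beside 16.0% and 15.7% of all genes, among them Trib3, a pseudokinase induced through PERK, which averaged 6.58 CPM in KO and 35.9 CPM in Ctrl (−2.34 ± 0.49, adjusted p = 6.7e-05), and Creb3l2 (−0.97 ± 0.37, adjusted p = 0.036). In early ICMs, beside 10.1% of all genes higher and 10.9% lower, 1 of 14 was higher, Ddit3, which encodes the stress factor CHOP (1.12 ± 0.36), and 1 lower, Mbtps1, the protease that cleaves ATF6 (−0.81 ± 0.13). Of 16 cytosolic and mitochondrial chaperones, none was higher and 4 lower early, and 1 was higher and 7 lower late.

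In early Oct4 KO ICMs, with 10.1% of all genes higher and 10.9% lower, the other ER lists had 4 of 13 co-chaperones higher and 1 lower, 4 of 15 disulfide isomerase genes higher and 1 lower, 6 of 16 translocation genes higher and none lower, and 1 of 16 degradation genes higher. Glycoprotein folding (1 of 6 higher), KDEL receptors (1 of 3 higher) and prolyl isomerases (1 higher and 1 lower of 6) added single genes. Dnajc3, which encodes a BiP co-chaperone and inhibitor of PERK, rose by 1.1997 ± 0.2934, and Calr4, a calreticulin relative, by 1.13 ± 0.33. Both hold an exact ER stress response element and are among the 5 of 73 genes of the other ER lists that do, matched by symbol. The other 3 did not pass, Creld2 at 0.42 (adjusted p = 0.22), Syvn1 at 0.41 (adjusted p = 0.37) and Derl3 at −0.52 (adjusted p = 0.69). Ero1b also holds one, but the lists carry it as Ero1lb, so it was not matched. Tmx4, a membrane-bound thioredoxin, changed by −1.33 ± 0.23, and Fkbp9, a prolyl isomerase, by −0.86 ± 0.23.

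After loss of Sox2 the counts stood beside 3.22% of all genes higher and 3.82% lower early, and 6.96% and 6.81% late. In early ICMs 1 gene each was higher of 15 disulfide isomerase, 16 degradation and 16 translocation genes, and 1 each was lower of 13 co-chaperones and 14 response genes. In late ICMs 1 of 15 disulfide isomerase genes, 1 of 6 glycoprotein folding genes and 2 of 16 degradation genes were higher, 2 of 16 translocation genes were higher and 3 lower, and 1 of 14 response genes was lower. The 3 that rose early were Tmx4 (0.96 ± 0.21), Edem1 (0.78 ± 0.19) and Spcs1, a signal peptidase subunit (0.32 ± 0.10), and Cnpy3, an ER co-chaperone, was lower (−0.59 ± 0.19) together with 1 gene of the response list. In late ICMs Tmx4 rose by 1.45 ± 0.22 from 39.4 to 100 CPM without overlap, and Edem1 and Sec11c rose by 0.77 and 0.72. Trib3 fell by 2.35 (SE 0.43), as it did without Oct4, and Ssr2 and Sec61b, both of the translocon, changed by −0.47 and −0.44. Tmx4 was thus lower in early Oct4 KO and higher in Sox2 KO ICMs, each against its own Ctrl. Its difference between the lines is not given here.

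Along the Ctrl stages, Creb3l2 rose by 3.92 in the Oct4 line and by 2.62 in the Sox2 line between morula and early ICM, and Cnpy2, an ER co-chaperone, by 1.87 and 2.70. Manf changed by −1.38 and −2.13 and Ube2j1, a ubiquitin-conjugating enzyme of ER-associated degradation, by −1.48 and −1.92. In the Oct4 line Txndc12, a small ER thioredoxin, rose by 2.83 and Kdelr3, a KDEL receptor, fell by 2.09, whereas in the Sox2 line Ero1l, an ER oxidase, fell by 1.92. From early to late ICM, Trib3 rose in both lines (1.13 and 1.77) and Tmx4 and Txndc12 fell in both. Sec61b and Sec61g rose in the Oct4 line by 1.41 and 1.11, Dnajc1 fell there by 0.91, and Dnajc3 and Creld2 rose in the Sox2 line by 1.27 and 1.07. All of these passed the test.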

How the data were processed

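Single embryos were sequenced as 3′-end libraries with UMIs on an Illumina sequencer. Per the study's methods and the submitters' processing notes, the authors handled UMIs with UMI-tools, trimmed with cutadapt, aligned to mm10 with TopHat2, assigned reads to genes with featureCounts and counted unique transcripts with TRUmiCount. The deposited count table holds whole-number UMI counts per gene, not normalized, and a second deposited table holds log2-scale rlog values from DESeq2 by the authors. Libraries were amplified before sequencing, so low counts carry the most error, and upper limits for a count of 0 (3 counts) cover counting error only.

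Counts were tested with edgeR 4.0.16 (TMM, quasi-likelihood F test, R 4.3.3), on genes with a UMI in at least 0.5 of the embryos of a stage. Oct4 and Sox2 Ctrl and KO embryos (96, 14053 genes) shared a fit, MWT comparisons used all embryos (13923 genes) and label sets the 32 late ICMs (12449 genes). Adjusted p-values are Benjamini-Hochberg over all genes tested, two-sided. SE is the fold change divided by the square root of F. limma 3.58.1 on rlog values and DESeq2 1.42.0 on counts were alternatives, beside other scalings, filters, thinned counts and leaving out each embryo in turn, where the dispersion trend of the full fit was kept. The scripts were tested on simulated data.

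Groups came from the sample titles, and embryos were not paired by replicate number. No pair of within-group embryos was alike within sampling noise: over 416 pairs the chi-square per gene was at least 2.41. Members, ER lists and markers were chosen with earlier results of these data known. Other ER genes named are, per comparison, up to 3 largest changes each way among those past the test and averaging at least 20 CPM in the higher group. Genes like Hspa5 were ranked by Pearson correlation with it among genes averaging at least 20 CPM in a group, over group means and, as a choice made with results known, over deviations from group means. Protein sequences were not analysed here. A gene that the rule for other ER genes selects is not reported here.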

Additional observations from a re-analysis of the deposited data

Results flagged for a closer look

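In groups of 4 to 10 embryos, an embryo set far from all others of its group was looked for in each of the 10 genes. Of 160 sets of a gene in a group, 13 held one, in 8 embryos. The rule flags about 1 in 20 by chance if values are normally distributed and sets independent. CPM was used unlogged and members correlate within embryos, so that rate is no reference here. Embryo 14 of the Sox2 MWT early ICMs was highest in Hspa5 (127.5 CPM, next 78.3), Hsp90b1 (184.6, next 96.4) and Pdia6 (189.05, next 118.9). Embryo 7 of the Oct4 MWT morulae was highest in Pdia4 (40.7 CPM, next 19.1), Pdia6 (124.03, next 60.1) and Xbp1 (105.7, next 51.3). Embryo 20 of the Sox2 Ctrl morulae was highest in Hsp90b1 (286.5 CPM, next 159.0) and Pdia4 (30.5, next 17.6). Hsp90b1 was also far higher in Oct4 Ctrl late ICM 1-9 (210.2 CPM, next 124.5) and far lower in Oct4 KO early ICM 5 (125.3 CPM, next 219.6). Canx stood out in Oct4 Ctrl early ICM 8 (425.2 CPM, next 344.1) and in Oct4 MWT late ICM 11 (462.4 CPM, next 344.7), and Xbp1 in Oct4 KO early ICM 11 (393.4 CPM, next 205.1).

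The effect of the knockout differed between the Oct4 and Sox2 lines, tested as the difference of the effects (edgeR, Benjamini-Hochberg adjustment), for Xbp1 in early ICMs (2.10 on the log2 scale) and for Hyou1 (1.99) and Pdia6 (1.10) in late ICMs, each more positive in the Oct4 line. The morula to early ICM change of Ctrl embryos differed between the lines for Hspa5 (3.80), Hsp90b1 (2.751), Pdia3 (2.21) and Pdia6 (1.01). Why these embryos and lines stood apart was not tested.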

How the results depend on the processing

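No member past the test, in the comparison or under another setting, had the opposite direction there. The MWT and label-set comparisons were not included in that check. Members that did not pass crossed 0 in some settings, as Pdia4, Pdia6, Xbp1 and Hsp90b1 did between the label sets in Sox2 KO late ICMs. The 5 members past the test in Oct4 KO early ICMs were 3 in the embryos whose replicate numbers both groups share and 7 with only the 2 groups compared, and the 2 at 2-fold became 1 with library totals only, limma on rlog values, only the 2 groups compared, and the shared-number embryos. The 9 in late ICMs became 2 in label set 1 and 5 in label set 2, and the 4 at 2-fold became 2 in set 1. For the difference of effects between the lines, DESeq2 gave 3 members early in place of 1, and late, limma and thinned counts gave 1 and DESeq2 and no filter 3 in place of 2. Between Sox2 Ctrl and MWT early ICMs the 1 member became 2 with DESeq2 and with only the 2 groups compared, and 0 with no filter and with the shared-number embryos. With no filter, label sets gave 1 member in the Oct4 line in place of 0 and 5 in the Sox2 line in place of 3. The cause of these changes was not tested.

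With each embryo left out in turn, members past the test ranged from 2 to 6 (Oct4 KO early; 2-fold 1 to 2), 8 to 10 (Oct4 KO late; 2-fold 3 to 7), 7 to 8 (Oct4 Ctrl morula to early ICM), 4 to 5 (early to late; 2-fold 2 to 3), 5 to 7 (Sox2 Ctrl morula to early ICM; 2-fold 2 to 4), 0 to 2 (early to late; 2-fold 0 to 1), 1 to 2 (difference of KO effects, early), 0 to 5 (the same, late), 3 to 4 (difference of Ctrl changes between lines), 0 to 1 (Sox2 Ctrl against MWT and Oct4 label sets) and 1 to 3 (Sox2 label sets; 2-fold 1 to 2). The late difference of effects was 0 without Sox2 Ctrl 2-6 and 5 without Oct4 Ctrl 1-9, and the Sox2 label sets gave 1 without Sox2 Ctrl 2-6 or Sox2 KO 1-1. For single members under the other settings, 1271 values kept their side of the threshold, 38 lost the test and 11 gained it. With single embryos left out, 3416 kept it, 67 lost the test and 37 gained it. Neither tally covers the MWT or label-set comparisons.

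Same-numbered embryos correlated between −0.20 and 0.23 in their deviations. No differently numbered embryos were set beside them, so these values cannot decide whether the numbers pair embryos. A replicate block gave 1 member at 2-fold in Oct4 KO early ICMs in place of 2, 1 past the test in Sox2 KO early ICMs in place of 0 (Calr, 0.71, edgeR adjusted p = 0.013, and 0.36 in the same embryos without the block), and 0 in Sox2 Ctrl against MWT early ICMs in place of 1. Under it Pdia4 lost the test in Oct4 KO early ICMs (edgeR adjusted p = 0.24), Canx in the Oct4 Ctrl step from morula to early ICM (0.18), and Hsp90b1 (0.24) and Pdia3 (0.092) in the Sox2 Ctrl step, where Calr gained it (1.07, edgeR adjusted p = 5.6e-05). In the same embryos without the block these 4 losses also occurred, and Calr also passed in the Sox2 Ctrl step. No paired analysis was possible because fewer than 2 numbers were shared for Oct4 KO late ICMs, Sox2 KO morulae, both early to late steps and the Oct4 MWT late ICMs. At 525755 to 1344035 UMIs per embryo, Hyou1, Pdia3 and Pdia4 rested on few counts.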
